A study of Mus musculus with 6 samples.

Results

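Th, Ddc, Dbh, Tph2, Slc6a2, Slc6a3, Slc6a4, Slc18a2, Chat and Slc5a7 are the genes by which neurons that release dopamine, noradrenaline, serotonin or acetylcholine make, package or take back their transmitter. The 10 genes were chosen by symbol from the 36210 gene rows of the deposited table, and each symbol matched 1 row. RNA labelled as coming from astrocytes of the brain was sequenced from 6 libraries of APP/PS1 mice, a line that carries mutant human amyloid precursor protein and presenilin transgenes and forms amyloid plaques. The series text gives the age as 8 months. The 3 vehicle libraries came from mice given saline and the 3 AVE0991 libraries from mice given AVE0991 (a non-peptide compound that acts on Mas, the receptor of angiotensin-(1-7)) at 10 mg per kg. Both were injected intraperitoneally, daily, for 30 days. All libraries share the APP/PS1 background, and no wild-type group was analysed here. The labels do not say whether each library came from a separate mouse, and every p-value therefore rests on library-to-library spread alone, which may be technical.

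The cell bodies of monoamine neurons lie in small groups in the brainstem: dopamine neurons mostly in the ventral midbrain, serotonin neurons in the raphe nuclei, and noradrenaline neurons in the locus coeruleus and the lower brainstem. Cholinergic neurons lie in the basal forebrain and the striatum, and among the motor and tegmental nuclei of the brainstem. Their fibres reach most of the brain, but most of the mRNA stays near the cell body, so these transcripts mark tissue that holds the nuclei. In the mouse, Th is also transcribed in interneurons of the olfactory bulb, and Ddc outside the nuclei.

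Gene rows held 44583274 to 50066615 counts per library. Levels of 1 gene across libraries are given as CPM, counts scaled to a common library size with edgeR's TMM factors, and levels of different genes as the deposited FPKM, which is per length. Although the labels name astrocytes, all libraries held neuron transcripts, and 10 general neuron genes summed to 4304 to 5414 CPM. The 10 astrocyte genes summed to 5648 to 7908 CPM. Such sums are not per length and are compared only between libraries. The libraries also differed in genes of brain regions. The 12 cerebellar granule cell genes summed to 400 to 477 CPM in the vehicle libraries and 475 CPM in AVE0991 replicate 1, against 2720 and 2609 CPM in AVE0991 replicates 2 and 3. The 12 hindbrain genes, 10 Hox genes with the glycine transporter gene Slc6a5 and the glycine receptor gene Glra1, summed to 384 CPM in AVE0991 replicate 2 and to 5.16 to 33.6 CPM in the other 5 libraries. The 8 olfactory bulb genes summed to 123 CPM in AVE0991 replicate 1 and to 18 to 26.6 CPM elsewhere. Eomes of that list had another order, at 8.18, 8.19 and 7.94 CPM in AVE0991 replicates 1, 2 and 3 and 0.777 to 1.37 CPM in vehicle. In bulk RNA, fewer cells of a type and less RNA per cell cannot be told apart.

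All 10 genes were detected in every library and passed the filter on low counts. By deposited FPKM the highest mean level over the 6 libraries was that of Th, at 9.99 FPKM, followed by Ddc at 8.34, Slc6a3 at 4.2, Tph2 at 2.32, Chat at 1.99, Slc18a2 at 1.69, Slc6a4 at 1.64, Dbh at 1.48, Slc5a7 at 1.27 and Slc6a2 at 0.558 FPKM. Of these neighbours, Ddc was above Slc6a3, Slc18a2 above Slc6a4 and Slc5a7 above Slc6a2 in 5 of 6 libraries. Th was above Ddc and Chat above Slc18a2 in 4 of 6 libraries. In the other neighbouring pairs the gene with the higher mean was above in only 2 or 3 of 6 libraries. The order differed between groups: Slc6a3 had rank 3 in the vehicle group, at 7.42 ± 7.1 FPKM, and rank 9 in the AVE0991 group, at 0.973 ± 0.67 FPKM (SD, n = 3 each). Slc6a4 had rank 9 in vehicle libraries, at 0.767 ± 1.1 FPKM, and rank 4 in AVE0991 libraries, at 2.52 ± 4.11 FPKM (SD, n = 3 each).

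No gene of the 10 passed the test between the groups. By edgeR's quasi-likelihood test adjusted over 20363 genes, 0 of 10 were higher and 0 of 10 lower at an adjusted p under 0.05, where 0.864% of all genes tested were called, 0.0344% higher and 0.83% lower. At an unadjusted p under 0.05 there was 1 of 10, Slc6a3, against 23.6% of all genes tested. DESeq2 also called 0 of 10, where it called 11.5% of all genes, with 1 of 10 at an unadjusted p under 0.05, against 25.4% of all genes. It gave no adjusted p for Tph2 and Slc6a4, so these genes could not be called by it. Limma-voom with quality weights called 0 of 10, where it called 5.75% of all genes, with 0 of 10 at an unadjusted p under 0.05, against 30.1% of all genes. Vehicle and AVE0991 libraries overlapped for all 10 genes, while they did not overlap for 30.6% of all genes tested.

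The spread between libraries was wide. The ratio of the highest to the lowest library ran from 5.42 for Ddc to 80.4 for Slc6a4, with a median of 20 over the 10 genes. The median over the 15753 genes tested with a mean of at least 1 CPM was 1.58, and 3.84% of those genes had a ratio as large as that of Ddc. The standard error of the log2 fold change was accordingly wide, from 0.67 to 1.73 for the 10 genes, beside a median of 0.17 for genes with a mean of at least 1 CPM.

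**Figure D1:**
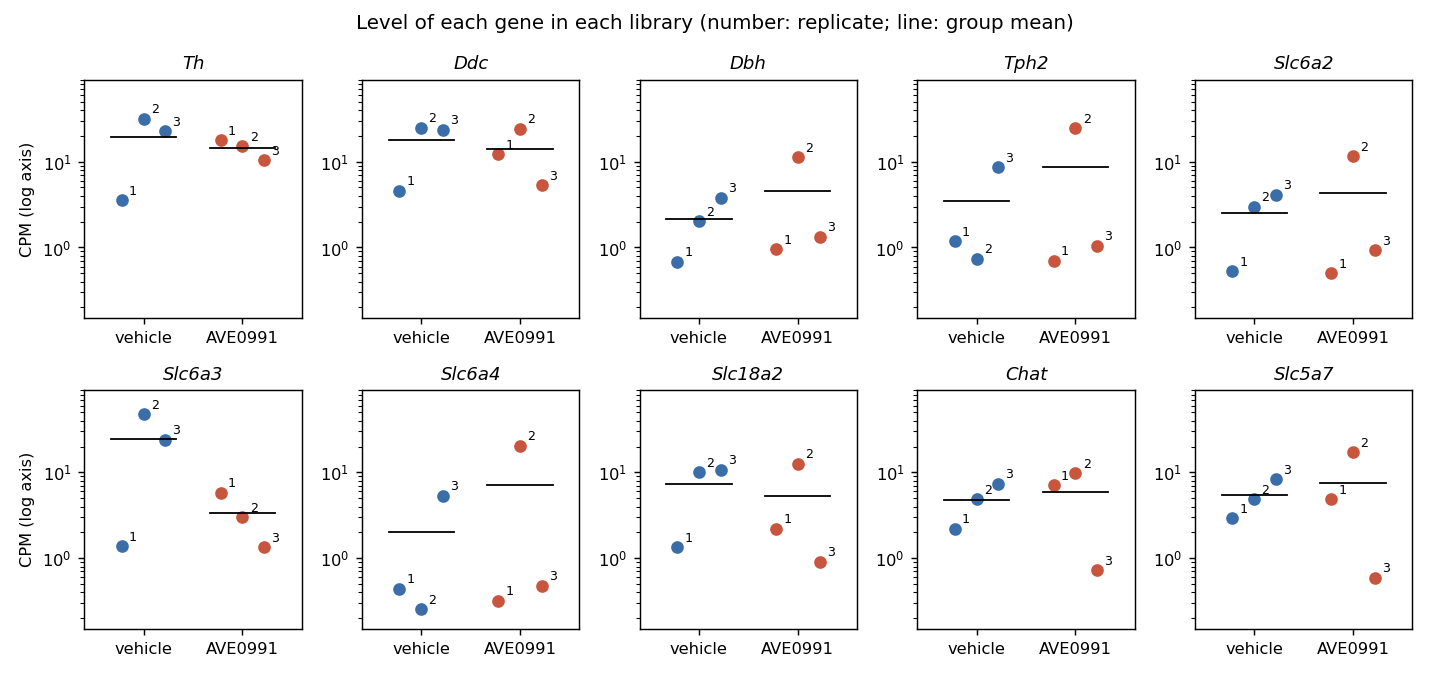
Level of each of the 10 genes in each library, in CPM on a log axis; each point is 1 library with its replicate number, blue for vehicle and red for AVE0991, and the line is the group mean (n = 3). The points of both groups overlap for all 10 genes, and AVE0991 replicate 2 is the highest library for 7 of them.

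The dopamine genes come first. Th encodes tyrosine hydroxylase, the rate-limiting enzyme of dopamine and noradrenaline synthesis, and Slc6a3 encodes the plasma membrane dopamine transporter, which midbrain dopamine neurons carry. The 150 bases before the RefSeq start of each (GRCm38.p6, a later build than the mm9 named by the labels) are shown with those of the serotonin genes Tph2 and Slc6a4, because the genes of each pair are compared below across libraries. Capitals mark matches, on either strand, to TGACGTCA (the cAMP response element, CRE), TATAAA (the TATA box), GGGCGG (the GC box) or AAAGGTCA (the monomer motif of Nr4a2 and its relatives, NBRE).
Th, chr7:142899996-142900145, minus strand: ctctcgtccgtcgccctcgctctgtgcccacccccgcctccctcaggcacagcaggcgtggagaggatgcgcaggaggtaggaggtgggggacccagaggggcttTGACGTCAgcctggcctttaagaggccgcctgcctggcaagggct
Slc6a3, chr13:73536597-73536746, plus strand: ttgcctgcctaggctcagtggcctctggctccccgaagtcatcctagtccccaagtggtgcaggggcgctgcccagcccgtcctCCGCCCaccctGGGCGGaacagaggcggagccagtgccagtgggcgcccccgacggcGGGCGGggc
Tph2, chr10:115185023-115185172, minus strand: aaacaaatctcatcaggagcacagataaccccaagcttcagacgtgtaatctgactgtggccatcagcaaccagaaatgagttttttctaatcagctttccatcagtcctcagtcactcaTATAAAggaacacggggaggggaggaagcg
Slc6a4, chr11:76998447-76998596, plus strand: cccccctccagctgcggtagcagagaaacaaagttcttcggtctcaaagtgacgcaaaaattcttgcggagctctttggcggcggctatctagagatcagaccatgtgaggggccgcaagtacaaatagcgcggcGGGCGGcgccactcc

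Searched over the 250 bases before the start, the CRE letters stood 45 to 38 bases before the start of Th, in the window shown, and 1.55% of 32851 RefSeq promoter windows of that length held them. The TATA box of Tph2 lay 30 to 25 bases before its start, and 12.4% of windows held one. Slc6a3 held 3 GC boxes and Slc6a4 also 3, of which 1 lies in the window shown, while 32.7% of windows held at least 1. Th held 1 GC box, in the part not shown. RefSeq promoter entries were matched for 9 of the 10 genes. A match of letters is a description, not a site.

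Slc6a3 had the largest difference in size between the group means. It stood at 1.39, 47.6 and 23.9 CPM in vehicle replicates 1, 2 and 3, and at 5.78, 2.98 and 1.34 CPM in AVE0991 replicates 1, 2 and 3. Vehicle replicates 2 and 3 were high, and vehicle replicate 1 was close to the lowest AVE0991 library, so the groups overlapped. The means were 24.3 ± 23.1 and 3.37 ± 2.25 CPM (SD, n = 3 each), with a log2 fold change of -2.85 (SE 1.12, unadjusted p = 0.0399, edgeR adjusted p = 0.193). In the authors' deposited table Slc6a3 had a log2 fold change of -2.82, a p-value of 0.022 and a q-value of 0.201. The fold change stayed negative without any 1 library, from -3.49 to -1.91.

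Th was at 3.57, 31.5 and 22.7 CPM in vehicle replicates 1, 2 and 3, and at 17.7, 15.2 and 10.5 CPM in the AVE0991 replicates. Vehicle replicate 1 was again the lowest, and the 3 AVE0991 libraries lay between it and the other vehicle libraries. The log2 fold change was -0.41 (SE 0.67, adjusted p = 0.747), and 0.14 without vehicle replicate 2. Th and Slc6a3 did not keep 1 ratio. Slc6a3 FPKM came to 75.7% and 52.7% of Th FPKM in vehicle replicates 2 and 3, to 19.3% in vehicle replicate 1, and to 16.3%, 9.8% and 6.5% in AVE0991 replicates 1, 2 and 3. AVE0991 replicate 1, with Th at 17.7 CPM, is the library with the high olfactory bulb sum; the part of the bulb genes in its Th level was not tested.

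Some other genes of midbrain dopamine neurons were highest in vehicle replicates 2 and 3, as Slc6a3 was, and others were not. The first comprised Chrna6, a nicotinic receptor subunit of dopamine neurons and the gene most like Slc6a3 across the 6 libraries, and the transcription factor genes Foxa1 and Pitx3, which were picked after their values were seen. Chrna6 stood at 0.485, 4.87 and 3.23 CPM in vehicle and 0.837, 1.13 and 0.386 CPM in AVE0991 replicates 1, 2 and 3. Foxa1 was at 0.0441, 1.45 and 1.39 CPM in vehicle and 0.479, 0.348 and 0.113 CPM in AVE0991 libraries. Its value in vehicle replicate 1 lay under the 0.0661 CPM that 3 counts make there. Pitx3 did not pass the filter on low counts. Lmx1a and En1, further factors of midbrain dopamine neurons, were instead highest in AVE0991 replicate 2, where Slc6a3 was at 2.98 CPM. Lmx1a was at 0.265, 1.27 and 1.37 CPM in vehicle and 0.738, 1.76 and 0.431 CPM in AVE0991 replicates 1, 2 and 3. En1 was at 0.441, 2.19 and 4.98 CPM in vehicle and 0.638, 6.27 and 2.77 CPM in AVE0991 replicates 1, 2 and 3. Nr4a2, a factor that dopamine neurons need but that cortical and other neurons also express, had another order, with 42.7, 31.7 and 24.1 CPM in vehicle and 35.4, 15.5 and 45.6 CPM in AVE0991 libraries.

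Ddc and Slc18a2 serve several transmitters. Ddc encodes the decarboxylase that completes dopamine and serotonin synthesis, and Slc18a2 the vesicular monoamine transporter VMAT2. Ddc was at 4.61, 25 and 23.4 CPM in vehicle and 12.2, 24.1 and 5.29 CPM in AVE0991 replicates 1, 2 and 3 (difference of -0.35 on the log2 scale, SE 0.72, adjusted p = 0.803). Slc18a2 was at 1.34, 10.1 and 10.7 CPM in vehicle and 2.21, 12.6 and 0.908 CPM in AVE0991 libraries (difference of -0.49 on the log2 scale, SE 1.06, adjusted p = 0.81). Both were high in vehicle replicates 2 and 3 and in AVE0991 replicate 2, that is, in every library in which the dopamine, serotonin or noradrenaline transporter was high. Slc18a2 shares 111 exonic bases with an antisense gene, Gm29261, in GENCODE M21, and whether the counting separated strands was not stated in the labels or headers.

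Tph2, the neuronal tryptophan hydroxylase that starts serotonin synthesis, and Slc6a4, the serotonin transporter, varied between libraries together, in another order than the dopamine genes. Tph2 stood at 1.19, 0.744 and 8.59 CPM in vehicle replicates 1, 2 and 3, and at 0.698, 24.4 and 1.04 CPM in AVE0991 replicates 1, 2 and 3. Slc6a4 stood at 0.441, 0.254 and 5.34 CPM in vehicle and at 0.319, 20.4 and 0.477 CPM in AVE0991 libraries. For both genes AVE0991 replicate 2 was highest, vehicle replicate 3 second, and the other 4 libraries were low. The lowest value of Slc6a4 rested on 13 counts (95% exact Poisson interval 6.92 to 22.2) and the highest on 939 counts (880 to 1001); these intervals cover counting error only. Vehicle replicate 2, the library highest in Slc6a3, was the lowest in Slc6a4. The log2 fold changes, 1.31 for Tph2 (SE 1.49, adjusted p = 0.63) and 1.81 for Slc6a4 (SE 1.73, adjusted p = 0.561), did not pass. Without AVE0991 replicate 2 they were -2.01 and -2.34.

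Fev, the transcription factor of serotonin neurons also called Pet1, followed the serotonin pair, a gene picked after its values were seen. It was at 0.11, 0.117 and 0.896 CPM in vehicle and at 0.12, 2.33 and 0.34 CPM in AVE0991 replicates 1, 2 and 3. Vehicle replicate 3 and AVE0991 replicate 2 were again the high libraries. Gata3, another factor of serotonin neurons, was also high there, at 7.43 and 7.36 CPM, but stood at 2.8 CPM in vehicle replicate 2 as well. Lmx1b and Gata2, further such factors, were highest in AVE0991 replicate 2 but did not part vehicle replicate 2 from 3 as the serotonin pair did. In vehicle replicates 2 and 3 Lmx1b stood at 3.44 and 4.32 CPM and Gata2 at 4.58 and 4.5 CPM. Among the 13568 genes compared, those with an Entrez identifier, a given name and a mean of at least 1 CPM, the developmental factor gene Mab21l2 was most like both Tph2 and Slc6a4. Next came Pax7 and Glra1 for Tph2 and Hoxb3 and Hoxb5 for Slc6a4.

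Dbh, which converts dopamine to noradrenaline, and Slc6a2, the noradrenaline transporter, formed another pair. Dbh was at 0.683, 2.02 and 3.78 CPM in vehicle and 0.957, 11.3 and 1.34 CPM in AVE0991 replicates 1, 2 and 3. Slc6a2 was at 0.529, 2.97 and 4.12 CPM in vehicle and 0.499, 11.6 and 0.931 CPM in AVE0991 libraries. Both were highest in AVE0991 replicate 2, intermediate in vehicle replicates 2 and 3 and low in the rest. The log2 fold changes were 1.07 (SE 1.03, adjusted p = 0.566) and 0.77 (SE 1.22, adjusted p = 0.738), and without AVE0991 replicate 2 they were -0.91 and -1.83. Slc6a2 and Slc6a3 are close relatives, but the longest stretch their longest GENCODE transcripts share is 23 bases, and 2 of the 6 Slc6a2 counts were deposited as decimals.

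The cholinergic genes Chat, the acetylcholine synthesising enzyme, and Slc5a7, the high-affinity choline transporter, were lowest in AVE0991 replicate 3, as were Slc6a3 and Slc18a2. Chat stood at 2.2, 4.87 and 7.39 CPM in vehicle and 7.08, 9.73 and 0.726 CPM in AVE0991 replicates 1, 2 and 3. Slc5a7 stood at 2.93, 4.85 and 8.37 CPM in vehicle and 4.87, 17.2 and 0.59 CPM in AVE0991 libraries. For both, AVE0991 replicate 3 lay below every vehicle library, while AVE0991 replicate 2 was the highest. The log2 fold changes were 0.28 (SE 0.83, adjusted p = 0.87) and 0.49 (SE 0.99, adjusted p = 0.798), and -0.30 and -0.97 without AVE0991 replicate 2. Slc18a3, the vesicular acetylcholine transporter gene, was the gene most like Slc5a7, at 1.81, 2.8 and 6.73 CPM in vehicle and 4.61, 17.7 and 0.25 CPM in AVE0991 libraries. It lies within the Chat gene on the same strand and shares 0 exonic bases with it in GENCODE M21. Lhx8 and Isl1, factors of forebrain cholinergic neurons picked after their values were seen, parted from Chat in AVE0991 replicate 2. There Lhx8 was at 0.0653 CPM, the level of 3 counts, against 1.35 to 2.67 CPM in the vehicle libraries and AVE0991 replicate 1, and Isl1 at 0.544 CPM, against 1.28 to 3.81 CPM. Gbx1, another factor of forebrain cholinergic neurons, did not part from Chat there: it stood at 0.588 CPM in AVE0991 replicate 2, within the 0.333 to 0.857 CPM of those 4 libraries, and at 0.0454 CPM in AVE0991 replicate 3. The last value lay under the 0.0681 CPM that 3 counts make in that library.

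**Figure D2:**
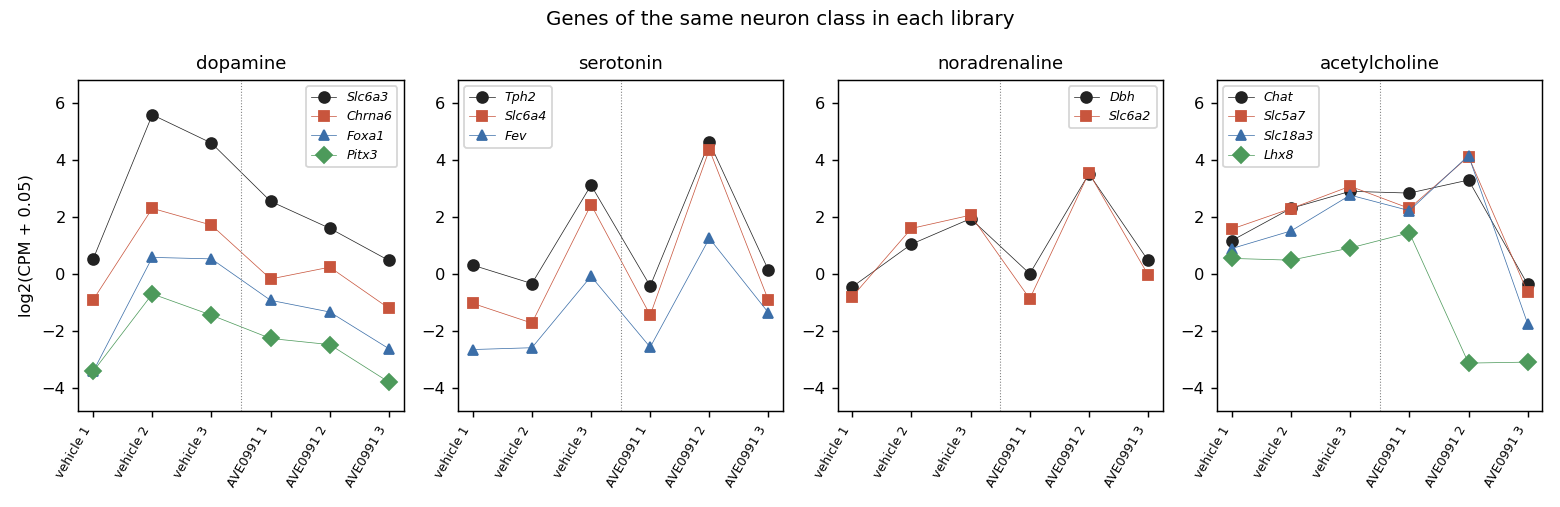
Genes of 4 transmitter classes in each library, as log2 of CPM plus 0.05; each marker is 1 gene in 1 library, thin lines only link the markers of a gene, and the dotted line divides vehicle from AVE0991 libraries. Slc6a3 and Chrna6 peak in vehicle replicate 2 at 47.6 and 4.87 CPM, Tph2, Slc6a4 and Fev in AVE0991 replicate 2 at 24.4, 20.4 and 2.33 CPM, and Lhx8 is low in AVE0991 replicate 2, where Chat is at 9.73 CPM.

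Likeness between the 10 genes was measured by the root mean square difference of their log2 CPM, each centred on its own mean, over the 6 libraries. Of the 45 pairs, the 3 closest were Tph2 with Slc6a4 (0.40), Chat with Slc5a7 (0.44) and Dbh with Slc6a2 (0.47), each a synthesis enzyme with the transporter of the same neurons. Th with Ddc followed at 0.55. Th with Slc6a3 stood at 1.24, and the most unlike pair was Slc6a3 with Slc6a4 (3.03). Outside the list, Th was most like Steap1, Aqp1 and Ttr. Aqp1 and Ttr are choroid plexus genes, and the choroid plexus sum ran from 136 CPM in vehicle replicate 1 to 1393 CPM in vehicle replicate 2. Ttr alone held 101 and 1276 CPM of these 2 sums, so the sum largely repeats Ttr. Ddc was most like Slc17a6, a vesicular glutamate transporter gene of thalamus and brainstem, with Hcn4 and Cd59a next. The genes nearest to Dbh were Lingo4, Vamp1 and Ebf3, and those nearest to Slc6a2 were the midbrain and hindbrain factor genes Pax5, Pax8 and Pax7. Slc18a2 was nearest to Lncenc1, Sncg and Slc17a6, Chat to Tacr1, Dgkk and Dlk1, and Slc5a7, after Slc18a3, to Dgkk and Slc10a4. After Chrna6, Slc6a3 was nearest to Slitrk6.

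**Figure D3:**
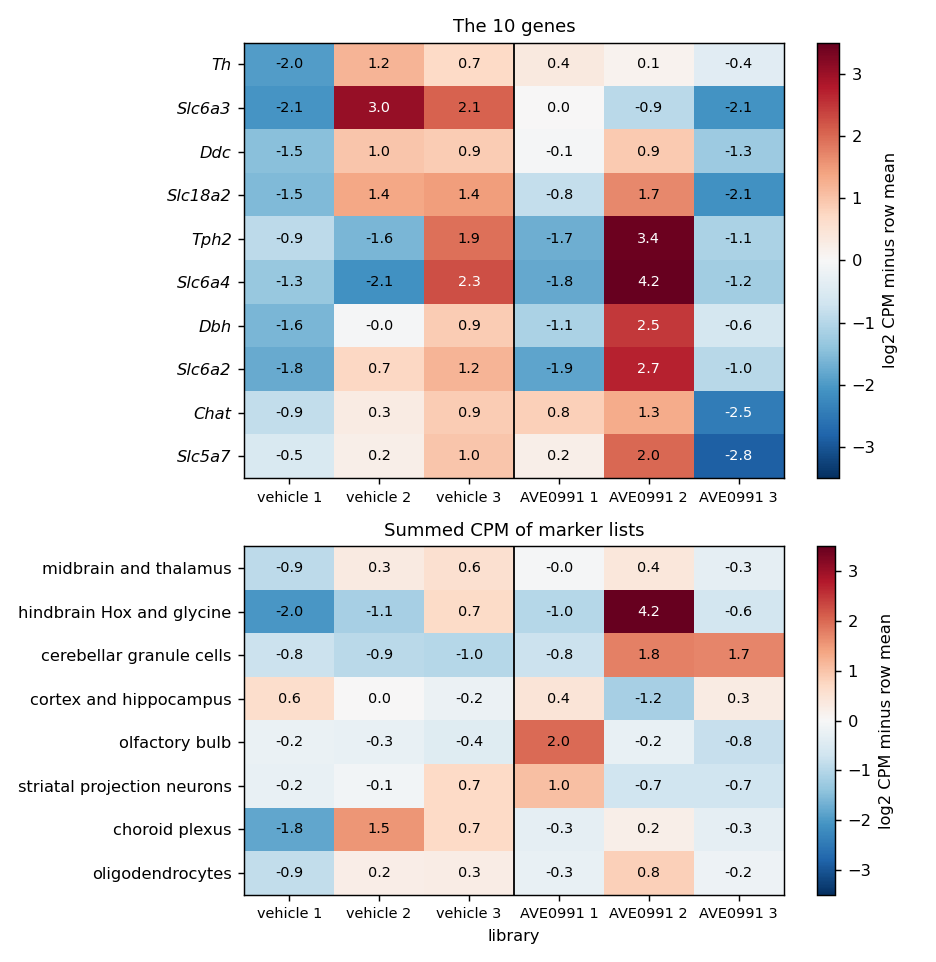
Upper panel, log2 CPM of the 10 genes in each library minus the mean of the row; lower panel, the same for the summed CPM of marker lists of brain regions and cell types (colours end at 3.5 in either direction, and the black line divides the groups). Slc6a4 is 4.2 above its mean in AVE0991 replicate 2, the library in which the hindbrain sum is highest, and Slc6a3 is 3.05 above its mean in vehicle replicate 2.

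The summed levels of the 10 genes were 18.9, 129.8 and 118 CPM in vehicle replicates 1, 2 and 3 and 52.4, 149.7 and 23.1 CPM in AVE0991 replicates 1, 2 and 3. Of the regional lists, some had a like order and others not. The 10 midbrain and thalamus genes summed to 201, 469 and 558 CPM in vehicle and 368, 494 and 301 CPM in AVE0991 libraries, lowest in vehicle replicate 1 and AVE0991 replicate 3 as for the 10 genes. Rora and Calb2 held much of these sums, at 110 and 29.2 CPM in vehicle replicate 1 and 128 and 125 CPM in AVE0991 replicate 3. Rora was also among the markers taken for Purkinje cells of the cerebellum. All 10 Hox genes were highest in AVE0991 replicate 2, with a sum of 67.5 CPM there, 3.31 CPM in vehicle replicate 3 and 0.352 to 1.1 CPM in the others. The sum of the 12 cortex and hippocampus genes was lowest in AVE0991 replicate 2, at 1744 CPM, and ranged from 3414 to 6055 CPM in the other libraries. Camk2a and Slc17a7 held much of these sums, at 4067 and 1124 CPM in vehicle replicate 1 and 809 and 455 CPM in AVE0991 replicate 2. Neurod2, Prox1 and Rasgrf2 were not lowest in AVE0991 replicate 2, while the rest of that list was. The 12 striatal genes were also lowest in AVE0991 replicate 2, at 628 CPM, with 631 CPM in AVE0991 replicate 3 and 865 to 2119 CPM elsewhere. The 12 hypothalamus genes summed to 57.5 and 53.5 CPM in AVE0991 replicates 2 and 3 and to 102 to 210 CPM in the other libraries. Sst alone held much of these sums. It stood at 71.9, 59.1 and 61.6 CPM in vehicle and 72, 32.5 and 42.4 CPM in AVE0991 replicates 1, 2 and 3. The cerebellar granule cell sums were alike in AVE0991 replicates 2 and 3, in which the sum of the 10 genes was 149.7 and 23.1 CPM. The 9 Purkinje cell genes summed to 5007 and 6454 CPM in these libraries and to 2057 to 2691 CPM elsewhere, and Itpr1 and Aldoc held much of these sums. Oligodendrocyte genes, 8 in number, summed to 3704, 7968 and 8041 CPM in vehicle and 5601, 11952 and 5961 CPM in AVE0991 libraries. Of the hindbrain list, Slc6a5 had the highest mean level and stood at 216 CPM in AVE0991 replicate 2 and at 1.23 to 13.2 CPM elsewhere. Glra1 came next, at 101 CPM in AVE0991 replicate 2 and 1.94 to 17.1 CPM elsewhere. The 8 genes of peripheral sympathetic, sensory or chromaffin cells, which also use some of the 10 genes, summed to 203 to 208 CPM in vehicle and 210 to 326 CPM in AVE0991 libraries. Chga and Chgb made up most of every sum. They stood at 65.6 and 121 CPM in vehicle replicate 1 and at 140 and 160 CPM in AVE0991 replicate 2. The sums therefore say little about the other genes of that list. Of those others, Pnmt, the adrenaline-forming enzyme, was at most 0.16 CPM and had 0 counts in vehicle replicate 1. The part of these regional and cell type differences in the values of the 10 genes was not tested.

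The sign of 6 of the 10 differences rested on AVE0991 replicate 2. With all libraries 6 of the 10 genes had a positive and 4 a negative log2 fold change, with a median of 0.38, beside -0.01 over all genes tested. Without AVE0991 replicate 2 all 10 were negative, with a median of -1.42, and 0 had an unadjusted p under 0.05, against 18.2% of the 20959 genes tested. In that fit edgeR called 0% of all genes, so that none of the 10 was called says nothing about them. Limma-voom with quality weights, which works on means of log values and weights the libraries, also gave 10 negative values, with a median of -0.96. Without AVE0991 replicate 3, 8 of the 10 were positive, with a median of 0.92.

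**Figure D4:**
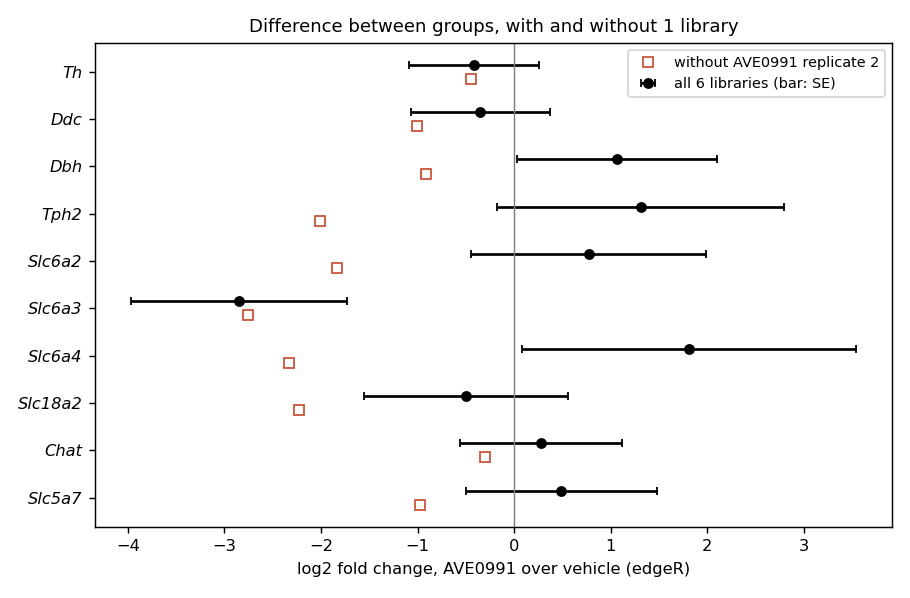
Log2 fold change of AVE0991 over vehicle for each gene by edgeR; black points with bars are the estimate and standard error with all 6 libraries, and open red squares are the estimate without AVE0991 replicate 2. The squares of all 10 genes lie below 0, while 6 of the black points lie above it.

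Other genes of the same pathways were taken in 8 lists with 86 genes, of which 79 passed the filter on low counts. EdgeR called 0 of them higher and 0 lower, where it called 0.864% of all genes. An unadjusted p under 0.05 was found for 10 of the 79, against 23.6% of all genes, and the groups did not overlap for 9, against 30.6% of all genes. The 7 genes that make or regenerate tetrahydrobiopterin, the cofactor of Th and Tph2, had a median log2 fold change of -0.09. The smallest p-values among them belonged to Gchfr, a regulator of cofactor synthesis (1.10, SE 0.54, adjusted p = 0.263), and Spr, sepiapterin reductase (0.17, SE 0.10, adjusted p = 0.328). Gch1, the first enzyme of that synthesis and here picked after its values were seen, was at 0.772, 2.5 and 1.91 CPM in vehicle and 0.837, 3.31 and 0.704 CPM in AVE0991 libraries, highest in the same 3 libraries as Ddc and Slc18a2. Of the 9 genes of other synthesis and transport 8 were tested (median 0.25), led by Slc7a5, an amino acid transporter (0.63, SE 0.27, adjusted p = 0.223), and Slc29a4, a low-affinity monoamine transporter (0.63, SE 0.30, adjusted p = 0.262).

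The 6 breakdown enzymes had a median log2 fold change of 0.05. Maoa, monoamine oxidase A, picked after its values were seen, had a mean of 28.7 ± 4.87 CPM with vehicle and 27.8 ± 5.65 CPM with AVE0991 (SD, n = 3 each). Bche, butyrylcholinesterase, stood at 4.25, 5.26 and 4.6 CPM in vehicle and 1.99, 2.63 and 2.47 CPM in AVE0991 replicates 1, 2 and 3. Its groups did not overlap, and the difference was -0.99 on the log2 scale (SE 0.19, edgeR adjusted p = 0.0653), which did not pass. Aldh2, an aldehyde dehydrogenase, was at 128 ± 8.1 and 165 ± 14.8 CPM (difference of 0.37 on the log2 scale, SE 0.11, adjusted p = 0.127), also without overlap. Of 18 transcription factors of these neurons 15 were tested, with a median of -0.03. En2, a midbrain and cerebellar factor, was at 3.54 to 5.14 CPM in vehicle and 2.59, 51.1 and 52 CPM in AVE0991 replicates 1, 2 and 3 (difference of 3.04 on the log2 scale, SE 0.96, adjusted p = 0.138), high in the libraries with high cerebellar sums. Tlx3 followed, at 3.08 (SE 1.19, adjusted p = 0.188). Its levels were 0.0783 to 0.639 CPM in vehicle and 0.14, 4.51 and 3.38 CPM in AVE0991 replicates 1, 2 and 3. The high libraries were the same as for En2.

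Receptors were measured for 46 genes, of which 43 were tested, 30 with a negative and 13 with a positive log2 fold change, and 0 were called. A negative value was also found for 50.7% of all genes tested. Serotonin receptors had a median of -0.25 (12 tested), led by Htr5a, at 13.8 ± 0.268 in vehicle and 9.75 ± 1.24 CPM in AVE0991 libraries (difference of -0.50 on the log2 scale, SE 0.13, adjusted p = 0.106), and Htr1f (-0.75, SE 0.40, adjusted p = 0.302). Acetylcholine receptors had a median of -0.32 (17 tested). Chrna7, the alpha7 nicotinic subunit, was at 21.7, 18.8 and 20.2 CPM in vehicle and 13.6, 16.3 and 13.7 CPM in AVE0991 libraries, without overlap (difference of -0.48 on the log2 scale, SE 0.12, adjusted p = 0.101), and Chrm3 at -0.73 (SE 0.21, adjusted p = 0.122). The dopamine receptors (5 tested, median -0.32) were led by Drd4 (1.89, SE 0.64, adjusted p = 0.153) and Drd5 (-0.49, SE 0.19, adjusted p = 0.19). Drd1 and Drd2, the receptors of striatal projection neurons and picked after their values were seen, were highest in AVE0991 replicate 1, at 48.7 and 48.9 CPM, where the striatal sum was also highest, at 2119 CPM. Adrenergic receptors (9 tested, median -0.26) were led by Adra2a (0.48, SE 0.26, adjusted p = 0.31).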

How the data were processed

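RNA of 6 libraries was analysed, 3 per group. The authors deposited estimated counts and FPKM values per gene and library; 81.6% of the counts were whole numbers as written, and the FPKM unit was worked out from the values. HISAT and the mm9 build are named in the submitters' processing notes. Their versions, the counting program and its annotation were not stated. Per the file headers, the deposited log2 fold changes come with p-values and q-values of DESeq2. The 10 genes and all lists were chosen with earlier results of these data known.

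Counts of 36210 gene rows were rounded and fitted in R 4.3.3 with edgeR 4.0.16 (filterByExpr, TMM, robust quasi-likelihood F test, no covariate), adjusted by Benjamini-Hochberg over 20363 genes and called at 0.05. Standard errors were taken as the fitted log2 value over the square root of F. The test was checked on simulated data. DESeq2 1.42.0 and limma 3.58.1 were alternatives, with other scalings and filters, each library left out, the replicate number as a block, and a correction for GC content of GENCODE M21 transcripts, known for 83.1% of genes tested. Besides the 10 genes, named genes were the called members of each pathway list or else the 2 of smallest p, and the 3 genes of at least 1 CPM most like each of the 10; the 2 markers of highest mean CPM in a regional list are given for the hindbrain only, and others are marked as picked later. A few genes that this rule names are not reported here. Rows without an Entrez identifier, 8202 in number, held 7.45% to 10.5% of counts. In each of the 15 possible pairs, 2 libraries were further apart than counting noise (chi-square of at least 16.4 per gene).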

Additional observations from a re-analysis of the deposited data

How the results depend on the processing

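Over 15 alternative settings 0 of the 10 genes were called, the smallest adjusted p being 0.111 for Slc6a3 with DESeq2. DESeq2 gave no adjusted p for Tph2 and Slc6a4. In the fits without vehicle replicate 1, 2 or 3, and without AVE0991 replicate 2 or 3, 0 genes of all tested were called. The same held with the replicate block, alone or with the GC correction, so those settings say nothing about the 10. Slc6a3 kept its negative sign in all 15 settings. Without single libraries the log2 fold changes ranged from -0.88 to 0.14 for Th, -1.01 to 0.043 for Ddc, -0.91 to 1.75 for Dbh, -2.01 to 3.17 for Tph2, -1.83 to 1.31 for Slc6a2, -3.49 to -1.91 for Slc6a3, -2.34 to 4.35 for Slc6a4, -2.23 to 0.0069 for Slc18a2, -0.30 to 0.80 for Chat and -0.97 to 1.04 for Slc5a7, and their median from -1.42 to 0.92. By limma-voom the sign turned for Dbh (-0.14), Tph2 (-0.27), Slc6a2 (-0.82), Slc6a4 (-0.071), Chat (-1.29) and Slc5a7 (-1.48). Without AVE0991 replicates 2 and 3 together, where the lone library is assumed to vary like the other group, it turned for Dbh (-1.17), Tph2 (-2.32), Slc6a2 (-2.34), Slc6a4 (-2.64) and Slc5a7 (-0.14), with a median of -1.45. The cause of these changes was not tested.

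Libraries of the same number did not deviate together (correlations of -0.02, 0.09 and -0.35 over 20363 genes). Correlations between libraries of different numbers ran from -0.32 to 0.39. A pairing by number was thus not seen, but deviations from means of 3 libraries cannot exclude it. With the replicate block Tph2 stood at -0.043, Slc6a2 at -0.036 and Slc5a7 at -0.055. With the GC correction and the replicate block Slc6a2 stood at -0.049 and Chat at -0.046. Over all genes edgeR called 7 higher and 169 lower, with the replicate block 0 and 0 and with both 0 and 0. DESeq2 called 1012 and 1335, limma-voom 449 and 721, no filter on low counts gave 58 and 379, a mean of at least 1 CPM 18 and 328, the GC correction 1 and 0, and the fit without AVE0991 replicates 2 and 3 together 0 and 0. Without single libraries the counts ran from 0 to 1386 higher and 0 to 995 lower, both above 0 only without AVE0991 replicate 1. Ordered by CPM in place of FPKM, 3 of the 10 genes kept their place. Depth limited the lowest values, such as the 13 counts of Slc6a4 in vehicle replicate 2.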
